A study of Mus musculus with 2 samples.

Results

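Cell cycle genes were read out in heart tissue of male B6CASTF1/J mice, an F1 hybrid of the B6 and CAST strains, at 36 days of age. The set holds 46 genes of 55536 GENCODE genes in the gene tables, all chosen by name and found by symbol: 17 mitotic genes, 10 replication genes, 8 G1 cyclins and kinases, 7 inhibitors, and a list of 4 made of E2f1, E2f4, E2f6 and Meis1. The series has 1 group of 2 biological replicates, called hearts here. No treatment, edited allele or comparison group is given in its labels. Each stranded, ribosomal RNA-reduced library was made from 300 ng of RNA with ERCC spike-ins. Both biosamples carry 1 donor entry, and whether this is 1 animal, which chambers were taken and the time of day were not given in the sources used here. The spread between the hearts may therefore be partly technical.

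The cell cycle is driven by cyclins that bind and switch on cyclin-dependent kinases. D-type cyclins with Cdk4 or Cdk6, and E-type cyclins with Cdk2, act in G1 on the pocket proteins Rb1, Rbl1 and Rbl2, which hold E2F-dependent genes down, while CDK inhibitors oppose the kinases. Heart muscle cells of the mouse mostly leave the cycle soon after birth, while endothelial cells, fibroblasts and immune cells of the heart can still divide.

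The libraries held 41846508 and 42481559 expected counts in replicates 1 and 2. All 8 cardiomyocyte markers (Myh6, Actc1, Tnnt2, Tnni3, Myl2, Ryr2, Nkx2-5 and Ttn) were detected, with summed levels of 26207 and 28759 TPM. All 6 markers were also detected for each of endothelial cells, fibroblasts, macrophages and the pericyte and smooth muscle list. None of 6 lymphocyte and none of 6 thymus markers reached 1 TPM in both hearts, and the thymus markers Ptcra and Foxn1 had 0 counts in both. Levels below are TPM, a per-length unit scaled to the library in which genes can be compared, given as mean ± SD over the hearts (n = 2 throughout). Detected means 1 TPM or more in both hearts.

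Of the 46 cell cycle genes, 28 were detected, beside 49.7% of 22015 nuclear protein-coding genes. The lists differed in how many members this took in. Only 2 of 17 mitotic genes were detected, against 10 of 10 replication genes, 7 of 8 G1 cyclins and kinases, 6 of 7 inhibitors and 3 of 4 in the E2F and Meis1 list. These counts are of the first quantification and depend on the line of 1 TPM. At 0.5 TPM, 34 members were detected. In the second quantification 32 reached 1 TPM in both hearts, with the mitotic genes Cdk1, Kif23 and Anln and the inhibitor Rbl1 added. No member was at 0 in either heart, and each had a mean expected count of 10 or more. In bulk tissue, fewer cells expressing a gene and less RNA of it per cell cannot be told apart.

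The median level of the mitotic genes was 0.485 ± 0.0212 TPM, with 0.50 and 0.47 TPM in replicates 1 and 2. That of the replication genes was 2.02 ± 0.0919 TPM, with 1.95 and 2.08 TPM. That of the inhibitors was 7.88 ± 0.431 TPM, with 7.58 and 8.19 TPM. The G1 cyclins and kinases had the highest median, 10.2 ± 2.88 TPM, and also the widest gap between the hearts, 12.3 and 8.21 TPM. In the second quantification the G1 median was 11.9 and 8.79 TPM and the inhibitor median 8.69 and 9.79 TPM, so that the inhibitors stood higher in replicate 2 and the order of these lists was not settled. The median of the E2F and Meis1 list was 7.88 ± 0.375 TPM. Thus the hearts' ranges of the mitotic, replication and inhibitor medians did not overlap, while the inhibitor range, 7.58 to 8.19 TPM, nearly met that of the G1 list, 8.21 to 12.3 TPM.

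Within each heart the replication median was 3.90 and 4.43 times the mitotic median, a mean ratio of 4.16 ± 0.372. The inhibitor median was 15.2 and 17.4 times the mitotic one, a mean ratio of 16.3 ± 1.60. Inhibitors over replication genes gave 3.91 ± 0.0356. The separation was not complete gene by gene. Of the replication genes, 6 of 10 had a mean level above every mitotic gene, as did 6 of 7 inhibitors and 7 of 8 G1 genes. Only 2 of 7 inhibitors, Cdkn1a and Cdkn1b, stood above every replication gene, since the clamp gene Pcna was high. This held for Cdkn1b in the first quantification only. In the second, Cdkn1b had 19.7 and 21.7 TPM, below Pcna with 24.0 and 22.8 TPM. The summed level was 11.1 ± 1.43 TPM over 17 mitotic genes, 32.9 ± 0.304 TPM over 10 replication genes, 134 ± 18.9 TPM over 8 G1 genes and 102 ± 25.2 TPM over 7 inhibitors.

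**Figure D1:**
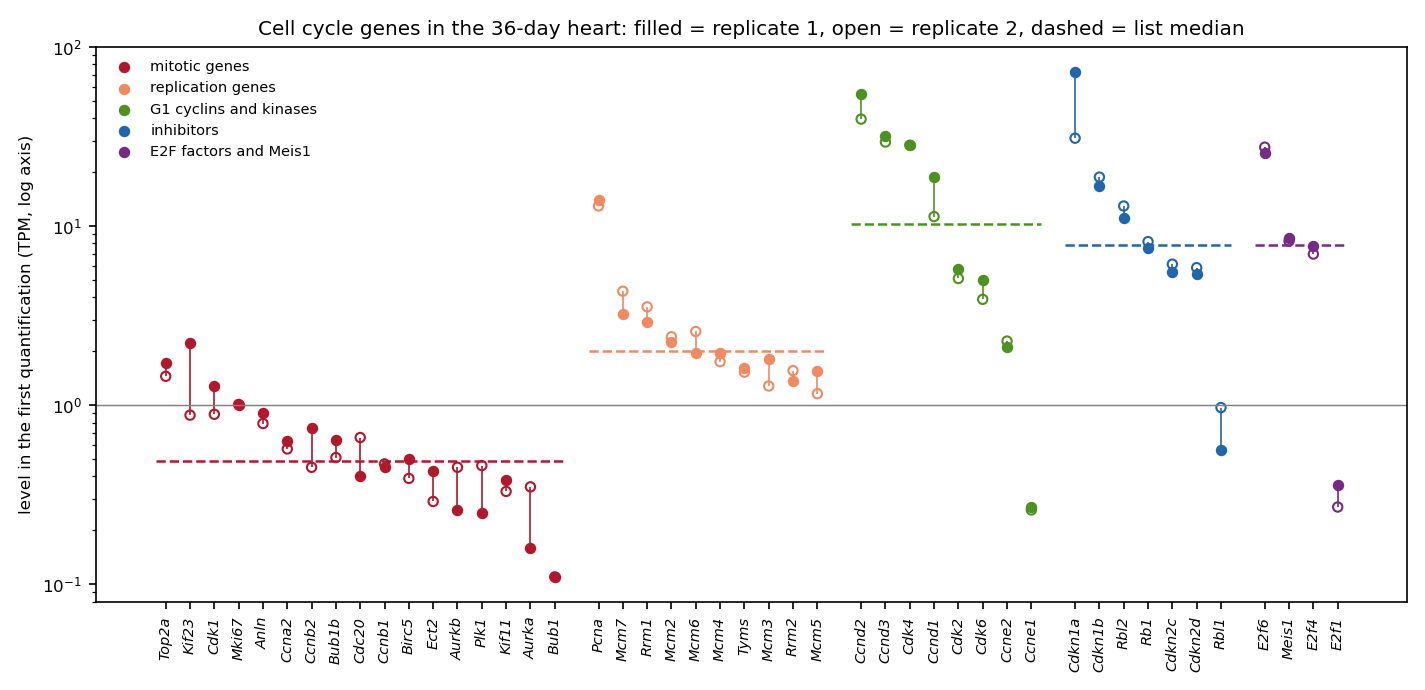
Level of each of the 46 genes in each heart (vertical log axis, TPM in the first quantification), grouped by role and ordered by mean; filled points are replicate 1, open points replicate 2, dashed lines the list medians and the grey line 1 TPM. Most mitotic genes lie under the line and every replication gene lies over it, while the inhibitors and G1 genes spread from under 1 TPM to 72.3 and 54.5 TPM in replicate 1.

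The mitotic genes reached from 0.110 to 1.58 TPM, around the middle of all nuclear protein-coding genes: the median member stood above 45.0% of them. Top2a, the topoisomerase that untangles replicated chromosomes (chromosome 11, 98992943 to 99024189, minus strand, mm10), was the highest, with 1.72 and 1.45 TPM from 189 and 160 expected counts. Mki67, the proliferation marker that coats mitotic chromosomes (chromosome 7, 135689784 to 135716361, minus strand), had 1.00 ± 0.00707 TPM from 335 and 341 counts. These were the only mitotic members at 1 TPM or more in both hearts in the first quantification.

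Cdk1, the kinase that drives entry into mitosis, stood at 1.28 and 0.89 TPM, on either side of the detection line. Its partners were lower: Ccnb2 had 0.75 and 0.45 TPM, Ccna2 had 0.63 and 0.57 TPM, and Ccnb1 had 0.45 and 0.47 TPM. Anln and Ect2, which act in cytokinesis, had means of 0.845 ± 0.0778 and 0.360 ± 0.0990 TPM. Kif23, a kinesin of the central spindle, had 2.22 and 0.88 TPM, the widest gap of the list. Its counts were nearer to each other, 71 and 55, and the TPM differed with the transcripts to which the reads were assigned, as given further on.

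The spindle checkpoint genes Bub1b and Bub1 had 0.575 ± 0.0919 and 0.110 TPM, Bub1 being the lowest of the 46 with 10 and 12 counts. Cdc20, the activator of the anaphase-promoting complex, had 0.530 ± 0.184 TPM. The mitotic kinases Aurkb and Plk1 and the spindle motor Kif11 all had a mean of 0.355 TPM, and Aurka had 0.255 ± 0.134 TPM. Birc5, which works with Aurkb at the centromere, had 0.445 ± 0.0778 TPM. From Anln down to Aurka, the ranges of neighbouring genes in the order of levels overlapped, so that their order was not resolved between these hearts.

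The low mitotic genes shared letters at their starts. Windows from 250 bases before to 50 bases after the annotated start were taken from RefSeq (GRCm38.p6, the assembly of mm10), which gave windows for 38 of the 46 genes. They were searched on both strands for the cell cycle homology element or CHR (TTTGAA or TTCGAA), bound by repressor and activator complexes of mitotic genes, for the CCAAT box (CCAAT), and for E2F sites (TTTCCCGC, TTTGGCGC or TTCCCGCC, of which TTTCCCGC and TTCCCGCC can overlap). A CHR match was present in 13 of 15 mitotic genes with a window (86.7%), beside 20.2% of 17492 protein-coding genes with a window. CCAAT was present in 13 of 15 (86.7%), beside 42.3%. Both were present in 12 of 15 (80.0%), beside 8.22%. In all 13 genes with a CHR match the nearest one began within 100 bases of the start, at a median distance of 22 bases. No E2F match of these letters was in any of the 15 windows. Cdk1 and Ccnb2 are shown because they carry both motifs, and Top2a because it is the highest mitotic gene and carries 4 CHR and 6 CCAAT matches. Each sequence runs 5′ to 3′ along the gene, with the matches of all searched motifs in capitals.
Cdk1 (chr10:69352863-69353162, minus strand): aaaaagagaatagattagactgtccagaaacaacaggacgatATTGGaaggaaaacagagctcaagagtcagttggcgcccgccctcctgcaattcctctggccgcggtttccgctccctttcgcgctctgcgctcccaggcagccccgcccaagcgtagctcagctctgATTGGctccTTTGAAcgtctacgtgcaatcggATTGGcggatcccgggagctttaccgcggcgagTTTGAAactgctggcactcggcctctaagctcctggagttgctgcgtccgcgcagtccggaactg
Ccnb2 (chr9:70421505-70421804, minus strand): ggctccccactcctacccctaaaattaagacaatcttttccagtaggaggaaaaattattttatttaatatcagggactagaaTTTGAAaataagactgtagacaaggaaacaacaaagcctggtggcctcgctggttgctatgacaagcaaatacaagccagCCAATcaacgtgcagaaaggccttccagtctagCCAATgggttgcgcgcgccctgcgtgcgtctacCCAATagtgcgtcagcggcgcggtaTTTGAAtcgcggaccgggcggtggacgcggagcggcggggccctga
Top2a (chr11:99024140-99024439, minus strand): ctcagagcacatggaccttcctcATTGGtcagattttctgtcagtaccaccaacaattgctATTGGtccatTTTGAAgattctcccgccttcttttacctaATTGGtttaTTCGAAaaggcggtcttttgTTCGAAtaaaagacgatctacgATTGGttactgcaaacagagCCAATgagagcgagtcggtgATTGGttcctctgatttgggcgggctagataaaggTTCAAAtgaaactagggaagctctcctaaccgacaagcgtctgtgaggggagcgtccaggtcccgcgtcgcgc

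In Cdk1 the CHR matches began 71 and 15 bases before the start, and in Ccnb2 they began 167 bases before and at base 5 after it. The 2 mitotic windows without a CHR match were those of Ccnb1, which held CCAAT matches only, and Birc5, which held no match to any of the 3 motifs. Another list of 20 mitotic genes, named among them Cenpa, Tpx2 and Foxm1, gave CHR in 10 of 15 windows (66.7%) and E2F matches in 0 of 15. These counts describe letters in a window and do not show that a site is used.

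The replication genes covered a narrower range apart from Pcna. Pcna, the sliding clamp of the replicative polymerases and also a repair protein (chromosome 2, 132249162 to 132253314, minus strand), had 14.02 and 12.96 TPM, above 82.0% of nuclear protein-coding genes. The subunits of the MCM helicase, which unwinds DNA at the fork, had means from 1.35 TPM for Mcm5 to 3.79 TPM for Mcm7. Between them stood Mcm3 at 1.54 ± 0.375 TPM, Mcm4 at 1.85 ± 0.141 TPM, Mcm6 at 2.27 ± 0.445 TPM and Mcm2 at 2.33 ± 0.113 TPM. The ranges of Mcm2 and Mcm6 overlapped, as did those of Mcm3 with both Mcm4 and Mcm5, and Mcm4 and Mcm6 met at 1.95 TPM.

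Rrm1, the large subunit of ribonucleotide reductase, which makes deoxynucleotides, had 3.23 ± 0.438 TPM from 381 and 450 counts. Its small subunit Rrm2 had 1.47 ± 0.134 TPM from 77 and 107 counts. Tyms, the thymidylate synthase, had 1.57 ± 0.0566 TPM from 51 and 52 counts. Rrm1 thus stood above Rrm2 in both hearts, with no overlap. Per length, Mcm7 was the most abundant helicase subunit in both hearts, holding 25.4% and 32.1% of the summed MCM level, and Mcm5 the least abundant on average, with 10.4% ± 2.52.

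In the replication windows, an E2F match was in 5 of 9 (55.6%), beside 4.77% of all protein-coding genes, and a CHR match in 2 of 9 (22.2%), near the share in all genes. CCAAT was in 8 of 9 (88.9%), close to its share in the mitotic windows. The genes with an E2F match were Mcm3, Mcm5, Mcm6, Mcm7 and Rrm1. Another 29 replication genes, among them the origin recognition, GINS and RFC genes, gave E2F matches in 12 of 23 windows (52.2%) and CHR in 6 of 23 (26.1%). Mcm3 and Mcm6 are shown because they held the most E2F matches, 3 and 2, with 2 of those in Mcm3 overlapping.
Mcm3 (chr1:20820263-20820562, minus strand): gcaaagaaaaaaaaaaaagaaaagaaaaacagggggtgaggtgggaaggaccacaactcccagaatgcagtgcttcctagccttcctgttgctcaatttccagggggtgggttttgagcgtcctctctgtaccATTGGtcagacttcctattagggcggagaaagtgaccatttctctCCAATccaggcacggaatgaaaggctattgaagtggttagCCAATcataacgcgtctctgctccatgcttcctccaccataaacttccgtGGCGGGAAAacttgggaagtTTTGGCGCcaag
Mcm6 (chr1:128359656-128359955, minus strand): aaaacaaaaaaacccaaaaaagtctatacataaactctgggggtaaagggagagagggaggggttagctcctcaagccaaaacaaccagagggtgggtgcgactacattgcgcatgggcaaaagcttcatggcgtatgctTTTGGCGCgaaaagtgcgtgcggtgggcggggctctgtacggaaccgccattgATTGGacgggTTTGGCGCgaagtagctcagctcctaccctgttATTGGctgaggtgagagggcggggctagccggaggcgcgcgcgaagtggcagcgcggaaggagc

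Of the other members, 14 had a window, with a CHR match in 1 (7.14%), CCAAT in 6 (42.9%) and an E2F match in 1 (7.14%, Cdk2). These shares were near those of all protein-coding genes or under them. The window follows RefSeq's start, which was compared with the main transcript of replicate 2 in the first quantification. It lay within 100 bases of that transcript's start in all 16 mitotic windows and in 33 of 43 member windows. For some genes replicate 1 or the second quantification had another main transcript.

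**Figure D2:**
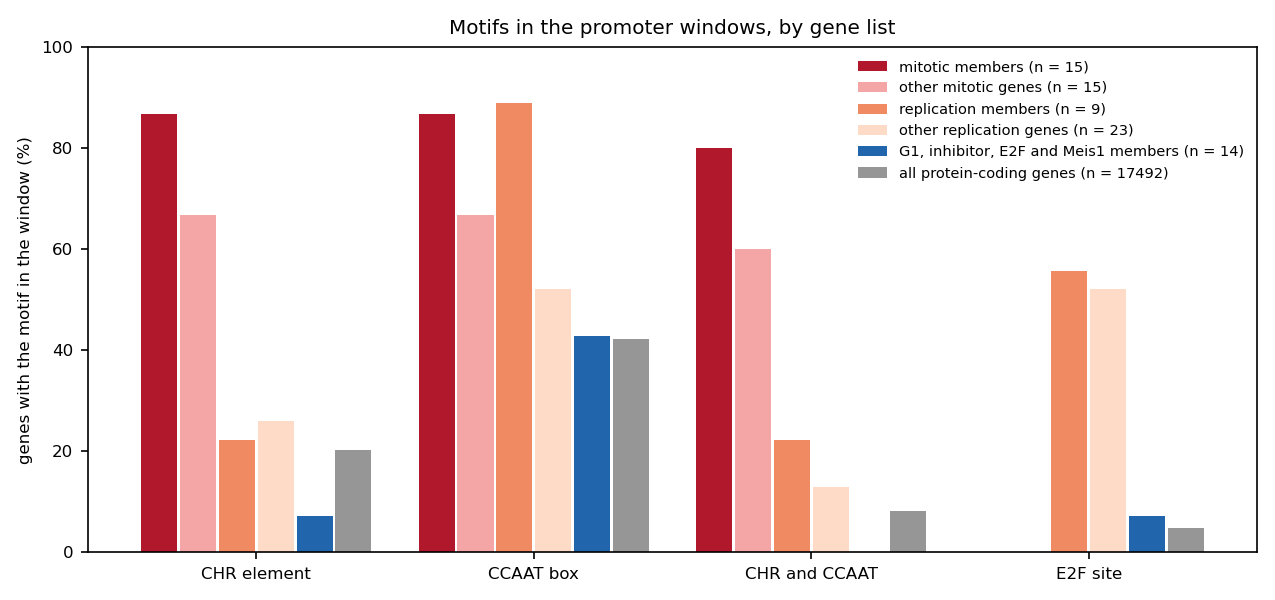
Share of genes whose window of 250 bases before to 50 bases after the start holds each motif (bars from 0%, n is the number of genes with a window), for member lists, other genes of the same pathways and all 17492 protein-coding genes with a window. CHR stands at 86.7% in the mitotic members and 20.2% in all genes, and the E2F bars stand at 55.6% in the replication members and at 0% in the mitotic members.

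The G1 genes held the most abundant cyclins and kinases of the set. Ccnd2, a D-type cyclin (chromosome 6, 127125162 to 127152193, minus strand), had 54.5 and 39.6 TPM, above 94.8% of nuclear protein-coding genes. Ccnd3 had 32.0 and 29.5 TPM, and Ccnd1 (chromosome 7, 144929931 to 144939925, minus strand) had 18.8 and 11.3 TPM. The order Ccnd2, Ccnd3, Ccnd1 was the same in both hearts, without overlap in the first quantification. In the second, Ccnd2 had 43.7 and 36.8 TPM and Ccnd3 39.0 and 36.3 TPM, so that their ranges overlapped. Of the summed D-type cyclin level, Ccnd2 held 50.5% ± 1.76, Ccnd3 33.5% ± 4.44 and Ccnd1 the rest, 17.9% and 14.1% in replicates 1 and 2.

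Cdk4, the main catalytic partner of D-type cyclins (chromosome 10, 127063534 to 127067920, plus strand), had 28.5 and 28.3 TPM, and Cdk6 had 4.99 and 3.90 TPM. By TPM, Cdk4 held 86.5% ± 1.99 of the pair's level. By expected counts, which do not correct for length, Cdk4 held 43.6% on average. The Cdk6 gene's main transcript is 11525 nt long, and the longest Cdk4 transcript with 10% or more of the gene is 950 nt long. Cdk2, the kinase of E- and A-type cyclins, had 5.73 and 5.10 TPM. The E-type cyclin Ccne2 had 2.10 and 2.28 TPM and Ccne1 had 0.27 and 0.26 TPM, so that Ccne2 held 89.2% ± 0.818 of the pair. Ccne1, with 17 counts in each heart, was the only G1 gene not detected.

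Cdkn1a, a Cip/Kip inhibitor of cyclin-dependent kinases and a known target of p53 (chromosome 17, 29090976 to 29100727, plus strand), was the highest of the 46 genes on average. It had 72.3 TPM in replicate 1 and 31.0 TPM in replicate 2, 51.6 ± 29.2 TPM. Replicate 1 was the higher heart, and the range of Cdkn1a overlapped that of Ccnd2. Cdkn1b, the other Cip/Kip member measured, had 16.8 and 18.8 TPM. Cdkn1a therefore held 81.1% of the pair's level in replicate 1 and 62.3% in replicate 2.

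RefSeq lists 2 starts for Cdkn1a, and the main transcript in the first quantification begins 2790 bases downstream of the outer one, at the inner one. Neither window held a CHR, CCAAT or E2F match. The outer window is shown because it held a p53 response element, searched after the letters of this window had been read, as 2 adjacent half-sites with at most 1 mismatch. Such an element was in the window of 1 of 38 members and of 11 of 17492 protein-coding genes (0.0629%). The capitals mark it.
Cdkn1a outer start (chr17:29090729-29091028, plus strand): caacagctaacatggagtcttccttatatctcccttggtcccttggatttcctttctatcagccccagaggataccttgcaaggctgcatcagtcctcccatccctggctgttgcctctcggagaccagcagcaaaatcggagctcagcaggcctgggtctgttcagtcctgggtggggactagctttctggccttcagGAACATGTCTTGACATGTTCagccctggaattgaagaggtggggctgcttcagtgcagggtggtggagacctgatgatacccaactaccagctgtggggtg

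The INK4 inhibitors, which bind Cdk4 and Cdk6, were nearly level: Cdkn2c had 5.56 and 6.13 TPM and Cdkn2d had 5.43 and 5.86 TPM, with overlapping ranges. Among the pocket proteins Rbl2 was the highest with 11.14 and 12.95 TPM, followed by Rb1 (chromosome 14, 73183673 to 73325822, minus strand) with 7.58 and 8.19 TPM. Rbl1 had 0.56 and 0.97 TPM and was the only inhibitor not detected in the first quantification. In the second, Rbl1 had 1.38 and 1.09 TPM. Rbl2 held 58.2% ± 0.559 of the summed pocket protein level, Rb1 38.2% ± 1.61 and Rbl1 3.65% ± 1.05.

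Of the E2F factors, E2f6, which represses without binding pocket proteins (chromosome 12, 16810963 to 16839742, plus strand), was the highest with 25.5 and 27.6 TPM. E2f4, which pairs with Rbl1 and Rbl2, had 7.70 and 6.98 TPM. E2f1, an activator of replication genes, had 0.36 and 0.27 TPM from 32 and 24 counts. E2f6 held 77.6% ± 2.26 of the summed level of the 3 factors and E2f1 held 0.924% ± 0.210. Meis1, a homeobox factor known to keep mouse heart muscle cells out of the cycle, had 8.59 and 8.25 TPM.

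**Figure D3:**
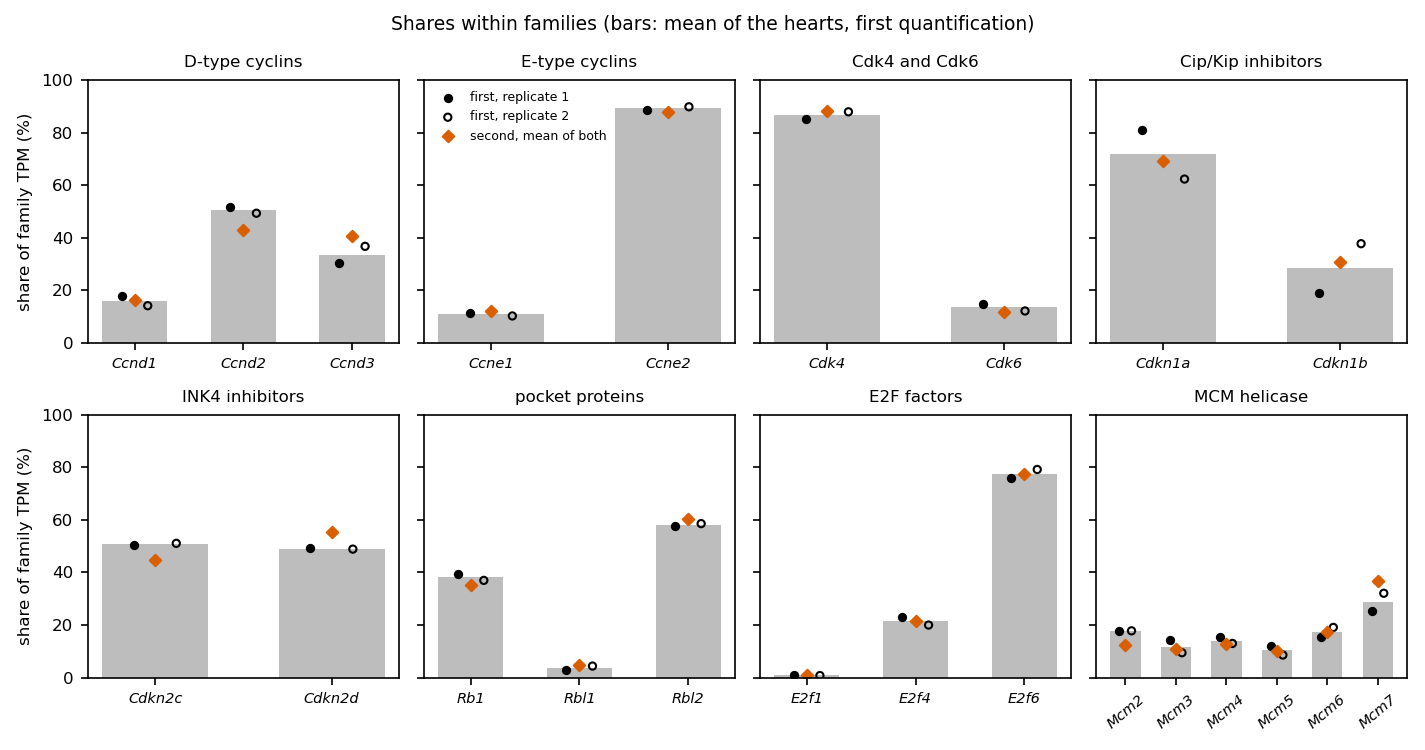
Share of each gene in the summed TPM of its family (axis in percent from 0 to 100); bars are the mean of both hearts in the first quantification, black and open points its hearts, and diamonds the mean of the second quantification. The leading gene is the same in both quantifications in 7 of 8 families, the exception being Cdkn2c with 50.9% and 44.7%.

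In the order of all 46 levels in the first quantification, 31 of 45 neighbouring genes had overlapping ranges over the hearts and 14 did not. The 14 gaps were mostly in the upper part of the order, for example between Ccnd2 and Ccnd3, between Cdk4 and E2f6 and between E2f6 and Cdkn1b. From Mki67 down, gaps were found between Mki67 and Anln and between Aurka and Bub1.

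The hearts were next compared gene by gene, as the log2 ratio of replicate 2 over replicate 1 of expected counts scaled by TMM, with a 95% interval that covers counting error only. With 1 group of 2 samples no test of a difference exists, and a difference of 2-fold or more at a mean count of 50 or more was described by size. Of the 34 members at that count, 1 was 2-fold or more higher in replicate 1, beside 1.00% of 12541 genes. None was 2-fold or more higher in replicate 2, beside 0.279%. At 1.5-fold the count was again 1 and 0, beside 2.58% and 1.69%.

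The 1 gene was Cdkn1a, with 4388 counts in replicate 1 and 1862 in replicate 2. Its log2 ratio was -1.28 (interval -1.36 to -1.20), a 2.43-fold difference, and it was -1.25 in the second quantification. The other inhibitors did not share it: the 6 other log2 ratios lay between 0.03 and 0.38, all on the side of replicate 2, though Cdkn2d was at -0.018 in the second quantification. Of these 6, only Rbl2 had an interval clear of 0, from 0.10 to 0.30. The largest difference in the list after Cdkn1a was that of Rbl1, with 90 and 121 counts and an interval that covered 0.

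Markers of other tissues also differed between the hearts, and in the same direction as Cdkn1a. Of 6 adipocyte markers (Adipoq, Plin1, Cidec, Fabp4, Lep and Ucp1), 5 had a mean count of 10 or more and all 5 were higher in replicate 1, 4 of them 2-fold or more. The exception was Fabp4, with a log2 ratio of -0.16. The summed level of the 6 was 443 and 353 TPM, mostly from Fabp4 with 382 and 349 TPM. The median log2 ratio of the 5 was -3.26. Among them, Ucp1 had 1635 and 46 counts and Adipoq 256 and 35. All 5 erythroid markers reported here (Hbb-bs, Hba-a1, Hba-a2, Alas2 and Slc4a1) were 2-fold or more higher in replicate 1, with summed levels of 19383 and 8929 TPM and a median log2 ratio of -1.19. Their part in the Cdkn1a difference was not tested.

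All 8 G1 cyclins and kinases had log2 ratios below 0, and 7 of 8 when scaled by the spike-in totals, where Ccne1 was at 0.027. Their median was -0.22 beside 0.0011 over 15749 genes with a mean count of 10 or more. For 5 of them the counting interval lay wholly toward replicate 1, beside 14.9% of those 15749 genes. The 2 shares are not at like depth. The interval narrows as counts rise, and the 5 genes had mean counts from 384 for Cdk2 to 5220 for Ccnd2. How unusual the G1 share is among genes of like depth was not tested. Ccnd1 had 1903 and 1351 counts, a log2 ratio of -0.54 (-0.64 to -0.44). Ccnd2 had 5762 and 4678 counts, -0.35 (-0.40 to -0.29). Cdk2 stood at -0.30, Cdk6 at -0.21 and Ccnd3 at -0.16. Each was under 1.5-fold. The fibroblast markers had a median log2 ratio of -0.22 with 4 of 6 higher in replicate 1 and summed levels of 495 and 426 TPM. Within that list the intervals of Col1a1, Col1a2 and Col3a1 lay wholly toward replicate 1, while those of Pdgfra, Dcn and Tcf21 covered 0. The macrophage markers had -0.16, also with 4 of 6, and 78.0 and 70.2 TPM. The cardiomyocyte median was 0.066, with all 8 markers higher in replicate 2. The endothelial median was smaller in size, -0.034, though 5 of 6 markers were higher in replicate 1. Its counting intervals lay wholly toward replicate 1 for 1 marker and toward replicate 2 for 1. The median of the pericyte and smooth muscle list was 0.037, with 3 markers higher in each heart. The part of any of these cell types in the G1 ratios was not tested.

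Over all 46 members, 6 had a counting interval wholly toward replicate 1, the 5 G1 genes and Cdkn1a, beside 14.9% of 15749 genes. Toward replicate 2 there were 4, beside 13.8%: Plk1, Mcm6, Mcm7 and Rbl2. Both shares are near those of all genes. Plk1 had 16 and 33 counts, a log2 ratio of 0.96 (0.10 to 1.96). Mcm6 had 191 and 249 counts, 0.34 (0.06 to 0.62), and Mcm7 had 248 and 317 counts, 0.31 (0.065 to 0.55). Rbl2 stood at 0.20 (0.10 to 0.30).

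The mitotic list had a median log2 ratio of -0.17, with 11 of 17 members higher in replicate 1 and 6 in replicate 2, from -0.73 for Ccnb2 to 0.96 for Plk1 and Aurka. Only 7 of the 17 had a mean count of 50 or more, so that a 2-fold difference in the rest was not detectable at this depth by the rule. The replication median was -0.064 and that of the E2F and Meis1 list -0.073, near 0. Scaling by the spike-in totals moved the median of all genes to 0.075, and those of these lists to 0.0091 and 0.00058. Over the 3 of 4 E2F and Meis1 genes with a mean count of 50 or more, the median was 0.031. The inhibitor median was 0.078. All 3 lymphocyte markers with a mean count of 10 or more were higher in replicate 2, but the sums over the 6 were 1.45 and 2.58 TPM, and Nkg7 was at 0 in replicate 2.

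**Figure D4:**
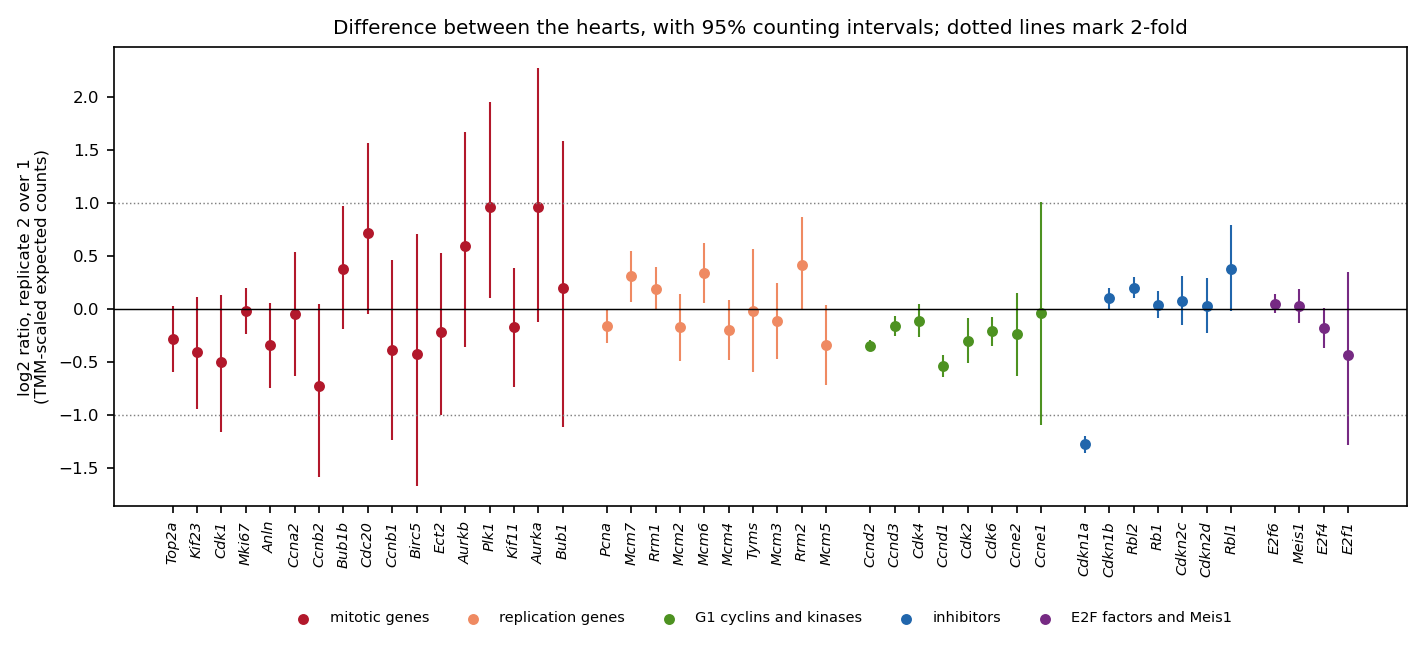
Log2 ratio of replicate 2 over replicate 1 for each gene (TMM-scaled expected counts, points) with its 95% counting interval (lines), grouped by role; dotted lines mark 2-fold. Cdkn1a at -1.28 is the only gene past 2-fold at a mean count of 50 or more, all 8 G1 genes lie under 0 (7 of 8 with spike-in scaling), and the mitotic intervals are wide.

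Part of the RNA of several members was assigned to transcripts that do not code for the full protein. The main transcript, the one with the largest share of a gene's TPM, was the same in both hearts for 40 of 46 members in the first quantification. Of 34 members with a mean count of 50 or more this held for 32, and of the other 12 for 8. It was protein-coding in both hearts for 40 of 46. The 6 exceptions were Kif23, Ect2, Tyms, Ccne2, Cdk4 and Meis1.

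For Cdk4 the largest share went to a retained-intron transcript of 468 nt, with 37.5% and 37.6%, while the protein-coding transcripts together held 38.7% and 36.9%. For Meis1 a noncoding processed transcript held 57.5% and 47.0%, and the protein-coding ones 24.8% and 30.6%. For E2f6 the main transcript was protein-coding with 62.5% and 59.7%, and a transcript marked for nonsense-mediated decay held 31.4% and 34.6%. These shares were close in both hearts.

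The Kif23 shares were not. Its protein-coding transcripts held 18.1% of the TPM in replicate 1 and 59.2% in replicate 2, the rest being on short noncoding ones, and its log2 ratio was -1.33 from TPM but -0.41 from counts. For Tyms, a transcript marked for nonsense-mediated decay held 2.21% and 50.1%. For Ect2, a retained-intron transcript held 41.1% and 0%. For Bub1b, retained introns held 45.9% and 0%, and its log2 ratio was 0.38 from counts but -0.33 from TPM. All 4 rested on mean counts of 63 or fewer. By its construction TPM divides by length, so that a read placed on a short transcript adds more TPM than a read on a long one.

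The authors' second quantification gave the members a median of 0.24 on the log2 scale over the first, near the 0.22 of all 11173 nuclear protein-coding genes with a mean of 1 TPM or more. Of the 30 members with a mean of 1 TPM or more, 0 were 2-fold or more higher in the second, beside 1.74%, and 0 were 2-fold or more lower, beside 0.591%. Under 1 TPM, Bub1 was 2-fold or more higher, at 0.110 TPM by the first and 0.330 TPM by the second. Other members that were higher in the second were Aurkb, with 0.355 and 0.693 TPM, Ccne1, with 0.265 and 0.509 TPM, Pcna, with 13.5 and 23.4 TPM, and Ccne2, with 2.19 and 3.79 TPM. The log2 values and the 2-fold counts of this comparison include a pseudocount of 0.1 TPM. Cdkn1a had 51.6 and 52.7 TPM.

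The main transcript was less settled than the level. It was the same in both hearts and both quantifications for 28 of 46. For Cdkn1a, the transcript Cdkn1a-201 held 96.2% and 95.9% in the first quantification but 3.70% and 2.76% in the second, which gave 94.0% and 94.8% to Cdkn1a-205. Both are protein-coding, of 1913 and 2080 nt. For Ccnd3, Ccnd3-205 held 76.0% and 79.0% in the first and 20.9% and 19.7% in the second. For Pcna the main transcript was the same throughout, but a noncoding one held 0.0500% on average in the first but 46.8% and 49.0% in the second. Beside Cdkn1a and Ccnd3, the genes whose main transcript differed between hearts or quantifications were Ccnb1, Aurka, Aurkb, Bub1, Bub1b, Mcm5, Ccne1, Cdkn2c, Rbl1, E2f1 and E2f6, along with Kif23, Ect2, Tyms, Ccne2 and Meis1.

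**Figure D5:**
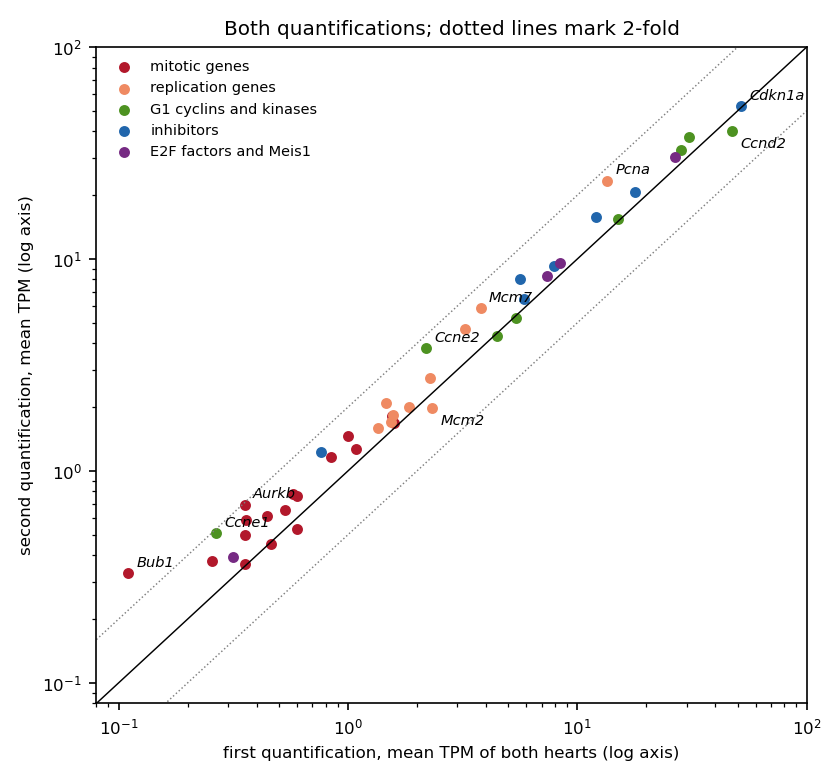
Mean level of each gene over both hearts in the first (horizontal) and the second quantification (vertical), both in TPM on log axes; the solid line marks equal values and dotted lines 2-fold. Bub1 lies past the upper 2-fold line, at 0.110 and 0.330 TPM, and most other genes lie slightly over the line of equal values.

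Several members share sequence with other annotated genes, which makes their read assignment less certain. Matches of 95% identity or more over 300 nt or more were found for 7 of 46 members: Ccnb1, Ccnd3, Mcm7, Meis1, Pcna, Rrm2 and Tyms. The pseudogene Pcna-ps2 was 99.2% identical to Pcna over 781 nt and was given 40.9 and 38.5 counts, beside 666 and 615 for Pcna. The pseudogene Gm5487 was 97.7% identical to Mcm7 over 2157 nt, with 7.28 and 15.5 counts beside 248 and 317. Ccnb1 matched 5 pseudogenes, of which Ccnb1-ps had 1.51 and 0 counts and the others none. For Tyms the matches were stretches of 330 to 361 nt in unrelated genes. Exons of 15 members overlap a gene on the opposite strand, among them Mcm7 with Cops6 (47.1 TPM), Rbl2 with Aktip (20.2 TPM) and Cdk4 with Tspan31 (17.5 TPM). The libraries keep strand, but whether the quantifications used it was not given in the sources used here.

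The wider pathways were described from 3 further lists in the same way. Of 20 other mitotic genes, 4 were detected, with a median level of 0.650 ± 0.0354 TPM. Cenpa, the centromeric histone variant, stood apart at 15.4 and 20.4 TPM, followed by Incenp, an Aurkb partner, at 2.55 ± 0.184 TPM and the phosphatase Cdc25b at 2.45 ± 0.297 TPM. The lowest were Cdc25c, with 3 and 0 counts, where 0 allows up to 3 counts, Mybl2 at 0.0800 TPM and the checkpoint kinase Ttk at 0.155 ± 0.0212 TPM. Between hearts, 3 of the 18 with a mean count of 10 or more had a counting interval wholly toward replicate 1 and 2 toward replicate 2. Over all genes at that count the shares were 14.9% and 13.8%.

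Of 29 other replication genes, 18 were detected, with a median of 1.48 ± 0.212 TPM. The highest were Gmnn, the geminin gene, an inhibitor of origin licensing, with 18.2 and 19.5 TPM, the origin recognition subunit Orc3 at 12.4 ± 1.47 TPM and the clamp loader subunit Rfc1 at 11.6 ± 0.191 TPM. The lowest were Orc1 at 0.0450 ± 0.0495 TPM, the licensing factor Cdc6 at 0.150 ± 0.0424 TPM and Mcm10 at 0.175 ± 0.0778 TPM. Subunits of 1 complex thus stood far apart: Orc3 and Orc4 were at 12.4 and 11.0 TPM, and Orc1 had 5 and 1 counts. None of the 27 with a mean count of 10 or more had a counting interval toward replicate 1, and 1, Rfc5, had one toward replicate 2. Over all genes at that count the shares were 14.9% and 13.8%.

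Of 21 other inhibitors and genes of the repressor complex, 14 were detected, with a median of 4.20 ± 0.516 TPM. Ccng1, a cyclin known as a p53 target, was the highest gene of all these lists with 181 and 195 TPM. It did not share the direction of Cdkn1a, with a log2 ratio of 0.071. Btg2, an antiproliferative gene and also a p53 target, was on the side of Cdkn1a, with 13.5 and 9.83 TPM and a log2 ratio of -0.49 (-0.62 to -0.37). It was named after its value was seen, and a part of p53 in these differences was not tested. Of the 20 genes of this list with a mean count of 10 or more, 2 had a counting interval wholly toward replicate 1, Btg2 among them. Toward replicate 2 there were 4, Ccng1 among them. Over all genes at that count the shares were 14.9% and 13.8%. Tfdp2, a dimer partner of E2F factors, had 43.2 ± 4.17 TPM and the histone-binding Rbbp4 26.7 ± 1.01 TPM. The lowest were Cdkn2a, with 1 count in each heart, Cdkn2b at 0.255 ± 0.0354 TPM and the atypical E2F gene E2f8 at 0.430 ± 0.255 TPM. None of the genes with a mean count of 50 or more in these 3 lists, 12, 20 and 15 in number, differed 2-fold between the hearts. Of all 12541 genes at that count, 1.28% did.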

How the data were processed

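Total RNA-seq of 2 hearts of 1 group was used, so values are mean ± SD and no groups were compared. Per the sample notes, the first quantification came from transcriptome alignments (mm10, GENCODE M21) and the second from the reads and an index. The columns follow the layouts of RSEM and kallisto, but tool names and versions were not given in the sources used here. The authors deposited expected counts per gene and transcript, estimated counts per transcript, TPM and FPKM with spike-ins included, and the percent of a gene's TPM on each transcript. The authors also deposited the SD of each count over possible read assignments, which was over 1 for 4 members. Entries that are no GENCODE gene held 0.487% and 0.470% of counts.

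TMM factors were computed with edgeR 4.0.16 and size factors with DESeq2 1.42.0 in R 4.3.3 on rounded expected counts. Log2 ratios used a prior count of 1 and exact Clopper-Pearson intervals. Reads have no molecular identifiers here, so intervals and the floor of 3 counts (0.0717 and 0.0706 CPM) cover counting error only. Over an exact sign permutation, 2 hearts cannot go below p = 0.5. The libraries differed by more than counting error, with a chi-square per degree of freedom of 24.1 over genes, which does not tell apart separate animals and separate preparations. The ratio was tested on simulated data. Near copies were searched with BLAST+ 2.17.0, and the 300 nt minimum was chosen after the matches were seen. The p53 element was added after its window was read.

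The members and lists were chosen with earlier results of these data known. The result of 1 cell type marker is not reported here. All members may be named. Given in full are the highest and lowest 3 of each role list, family members, those 1.5-fold or more apart, and those whose main transcript or level differs between quantifications. Of other pathway genes, the 3 highest and 3 lowest are named. Btg2, Rfc5 and Orc4 were named after their values were seen. Alternatives covered thresholds, units, scalings, prior counts, filters, the second quantification, each heart alone and a shorter promoter window.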

Additional observations from a re-analysis of the deposited data

How the results depend on the processing

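At 5 TPM, 15 members were detected, and at 0.5 TPM, 34. At 1 TPM in the second quantification, 32 were. In the second quantification the medians were 0.700 TPM for mitotic genes, 2.13 TPM for replication genes and 9.24 TPM for inhibitors, and the ratios of medians were 3.04 for replication over mitotic, 13.2 for inhibitors over mitotic and 4.34 for inhibitors over replication genes. With protein-coding transcripts only, the medians were 0.425, 1.70 and 6.62 TPM. At 3-fold, 0 members differed between the hearts. In the window of 150 bases before the start, 1 replication gene had a CHR match. Of the main results, 61 values under an alternative stayed within the spread or within 1.5 times the reported count, and 12 moved. Of the values of single genes and minor lists, 102 stayed and 15 moved. No member whose counting interval lay wholly on 1 side of 0 changed the sign of its log2 ratio. Signs did change for others, among them Ccne1, Cdkn2d and the medians of the replication list and the E2F and Meis1 list. Of the 8 families, Ccnd3 came closer to Ccnd2 in the second quantification (40.5% and 43.1%). The main transcript shared by both quantifications was found for 36 members in replicate 2 alone and 32 in replicate 1 alone. FPKM was applied to ratios of medians only, since medians in another unit are no alternative value. No paired analysis was possible because there is 1 group. Depth limits the 12 members with a mean count under 50, most of them mitotic.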
